A study of Rattus norvegicus with 10 samples.

Results

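The genes described here encode integrins, the proteins that hold cells to their matrix, and the focal adhesion proteins that tie integrins to actin. They were taken by name: every gene in the deposited table whose symbol began with Itga or Itgb, and 21 focal adhesion genes such as those for talin, vinculin, kindlins, tensins and filamin. The names matched 53 RefSeq genes of the rat (51 protein coding and 2 pseudogenes), and 7 of them were among the 1319 genes of the table. These were Itga3, Itga7, Itgae, Itgb4, Fermt2, Vcl and Tns3, and the other 46 were not analysed here. RNA was sequenced from the lungs of Sprague Dawley rats, an outbred strain, at 8 weeks of age, in 5 libraries from wild-type rats (WT) and 5 from rats lacking Cmg2 (Cmg2-KO), with no treatment in the labels. The series' design text names a larger number of replicates for each genotype, and only these 10 libraries were analysed here. Cmg2 encodes capillary morphogenesis gene 2 protein, a receptor for anthrax toxin whose extracellular domain resembles the ligand-binding domain of some integrin alpha subunits and binds basement membrane proteins. The labels do not give the allele, the sex of the animals or whether each library is from a separate animal, so a p-value here speaks only of the spread between the libraries at hand.

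An integrin is a pair of 1 alpha and 1 beta subunit, and the pair decides which ligand is bound. Talin and kindlins bind the tail of the beta subunit and switch the receptor on, and vinculin, tensins and other proteins then link it to actin filaments. In lung, integrins anchor epithelium, endothelium and smooth muscle to laminin and collagen, and other integrins place leukocytes within the tissue.

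The table holds the genes to which the authors gave an unadjusted p-value under 0.05 for this same comparison, 1319 of about 19894 genes (6.63%). Each gene below was therefore already selected for a difference between these libraries, and its presence, direction and unadjusted p-value are a description, not a separate finding. Values are read counts that the authors divided by a size factor per library, called scaled counts, in which 1 read is worth 0.869 to 1.11. They summed to between 1386578 and 1531531 per library over the listed genes, and the total depth is unknown. The targeted gene was not analysed here and gives no check of the genotypes.

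In Cmg2-KO lung, 5 of the 7 genes averaged higher (Itga3, Itgae, Fermt2, Vcl and Tns3) and 2 averaged lower (Itgb4 and Itga7), beside 48.2% higher among the 1308 genes tested. The differences were small. The largest among the higher genes was 20.1% for Itgae, on 227 scaled counts, and the others lay between 11.6% and 17.6%, while the mean differed by -12.5% for Itgb4 and -27.2% for Itga7. The median absolute log2 fold change was 0.20 over the 7 genes and 0.47 over all genes tested. None of the 7 passed limma's adjusted p of 0.05 over all 19894 genes, a threshold that 0.229% of the tested genes passed. At an unadjusted p under 0.05 limma had 6 of the 7, beside 79.1% of the tested genes, the exact permutation test 4, beside 66.8%, edgeR 4, beside 63.3%, and DESeq2 5, beside 71.8%, and none passed after adjustment in any of these. The authors' deposited table gave the 7 genes unadjusted p-values from 0.00754 to 0.0387 and adjusted p-values from 0.374 to 0.698, so none was among the 5.46% of the table with an adjusted p under 0.05 there.

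**Figure D1:**
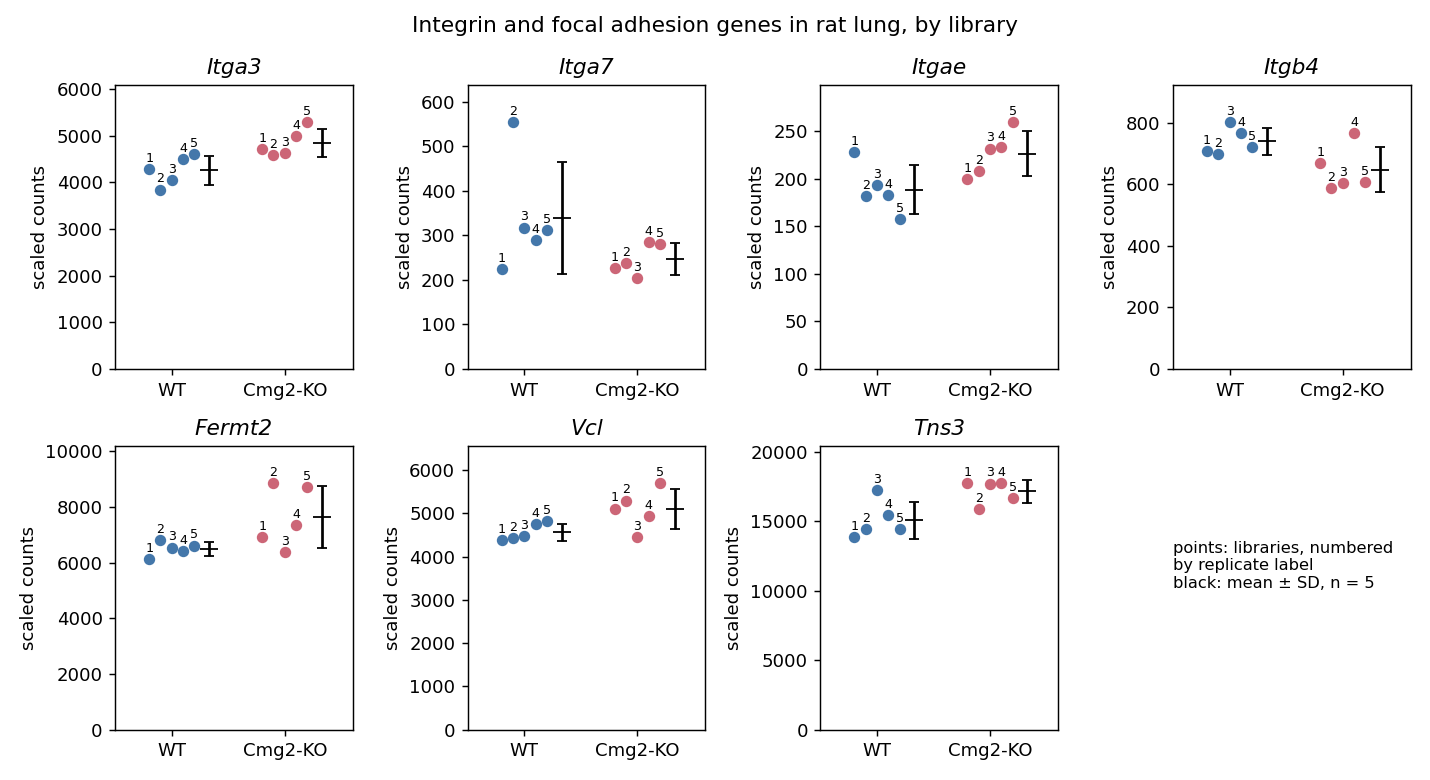
Scaled counts of the 7 integrin and focal adhesion genes in each WT and Cmg2-KO library, with the axis of each panel starting at 0, the replicate number beside each point, and the mean ± SD (n = 5) in black. The genotypes overlap in every panel, and WT 2 stands alone for Itga7 at 555.

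Among the integrin genes in the table, Itga3 had the most reads. It encodes the alpha 3 subunit, which pairs with beta 1 to bind laminins of epithelial basement membrane. It lies on the minus strand of chromosome 10, at 82855613 to 82887497 in the coordinates of the deposited table, whose build is not given in the sources used here. The WT libraries, in order of replicate number, had 4291, 3848, 4056, 4493 and 4609 scaled counts, and the Cmg2-KO libraries 4716, 4590.0, 4624, 4988 and 5297. The only overlap came from WT 5, which lay just above Cmg2-KO 2, so that 4 of 5 Cmg2-KO libraries were above every WT library. The Itga3 mean was 4259 ± 312 in the WT libraries and 4843 ± 298 in the Cmg2-KO ones (SD, n = 5). By limma the log2 fold change was 0.19 with an SE of 0.06 (adjusted p = 0.781). The two-sided exact permutation test gave p = 0.0159, adjusted to 0.822, where 0.00794 is the smallest p that 5 against 5 libraries allow.

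Itgb4 encodes the beta 4 subunit, which pairs with alpha 6 and anchors epithelial cells to laminin through hemidesmosomes, which attach to keratin rather than actin. It is also on chromosome 10, at 104523996 to 104561078 on the plus strand. The WT libraries had 708, 698, 803, 768 and 720.4 scaled counts and the Cmg2-KO libraries 670.1, 588, 604, 766 and 607. Cmg2-KO 4 lay inside the WT range and the other 4 Cmg2-KO libraries lay below all of it. The means were 739 ± 44.2 and 647 ± 73.5 (SD, n = 5). By limma the log2 fold change was -0.20 with an SE of 0.08 (adjusted p = 0.874; exact permutation p = 0.0556).

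Itga3 and Itgb4 were measured in the same libraries, so their ratio does not depend on how the libraries were scaled. Itga3 over Itgb4, as a ratio of scaled counts, was 5.05 to 6.40 in the WT libraries and 6.51 to 8.72 in the Cmg2-KO libraries, with means of 5.78 ± 0.52 and 7.55 ± 0.84 (SD, n = 5). The genotypes did not overlap in this ratio. The pair was chosen after its values were seen and both genes had been selected for a difference in this comparison, so no test is given. Dividing a gene that averaged higher by one that averaged lower itself favours a separation. How many other such pairs separate was not examined. The listed markers of alveolar, airway and mesothelial epithelium, 6 of 20, went both ways, with 4 higher, 2 lower and a median log2 fold change of 0.63. The values next to that median were those of the mesothelial genes Upk3b and Msln, at 0.63 each. The 2 lower genes were the alveolar marker Sftpb, at -0.24, and the airway gene Scgb1a1. The median therefore does not describe alveolar or airway epithelium. Their summed scaled counts were 199098 to 242843 in WT and 130789.0 to 223118 in Cmg2-KO, set mostly by the club cell gene Scgb1a1. No marker in the table was at 0 in any library, the surfactant gene Sftpb averaged 54112 ± 7232 and 45492 ± 2914, the mesothelial gene Msln 1482 ± 362 and 2332 ± 648, and the part of epithelial content in the values of Itga3 and Itgb4 was not tested. In such bulk samples, fewer cells of a type and less RNA per cell cannot be told apart.

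Itga7 encodes alpha 7, a laminin receptor subunit that pairs with beta 1 and is best known from skeletal, cardiac and smooth muscle. The gene is on the plus strand of chromosome 7, at 3355116 to 3384675. Its WT libraries had 223, 555, 317, 289 and 311 scaled counts, and its Cmg2-KO libraries 227, 237, 205, 285 and 281. WT 2 was far above the other 9 libraries, and WT 1 lay among the Cmg2-KO libraries. The means were 339 ± 126 and 247 ± 35.0 (SD, n = 5), and the log2 fold change was -0.40 ± 0.21 (SE; limma, adjusted p = 1; exact permutation p = 0.0873). Without WT 2 the log2 fold change shrank to -0.21, and without WT 1 it was -0.53.

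Smooth muscle markers were also lower where listed. Of 17 markers 9 were in the table, and all 9 were lower, beside 48.2% higher among all genes tested. Their median log2 fold change was -0.48, where all genes tested had a median of -0.15 and a median absolute value of 0.47. None of the 9 markers passed limma's adjusted threshold. Their summed scaled counts were 30622 to 50316 in WT and 25352 to 37719 in Cmg2-KO. WT 2, the highest library for Itga7, had the lowest smooth muscle sum of the WT libraries. WT 1 had the lowest Itga7 of the WT libraries and a smooth muscle sum of 45912, above all but WT 3. Some other libraries stood alike in both: Cmg2-KO 4 was the highest Cmg2-KO library for Itga7 (285) and for the sum (37719), and Cmg2-KO 3 was low in both, at 205 and 25607. WT 3 had the highest sum and, after WT 2, the highest Itga7. Cmg2-KO 1 and Cmg2-KO 5 did not stand alike. Cmg2-KO 1 had a low Itga7 of 227 with a sum of 36740, and Cmg2-KO 5 had 281 with a sum of 26724. The 3 listed pericyte and fibroblast markers of 16 (Dcn, Rgs5 and Pi16) were all lower too, with sums of 2758 to 5860.0 and 2018 to 3068. No listed marker of either list was at 0 in any library, and their part in the Itga7 values was not tested.

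**Figure D2:**
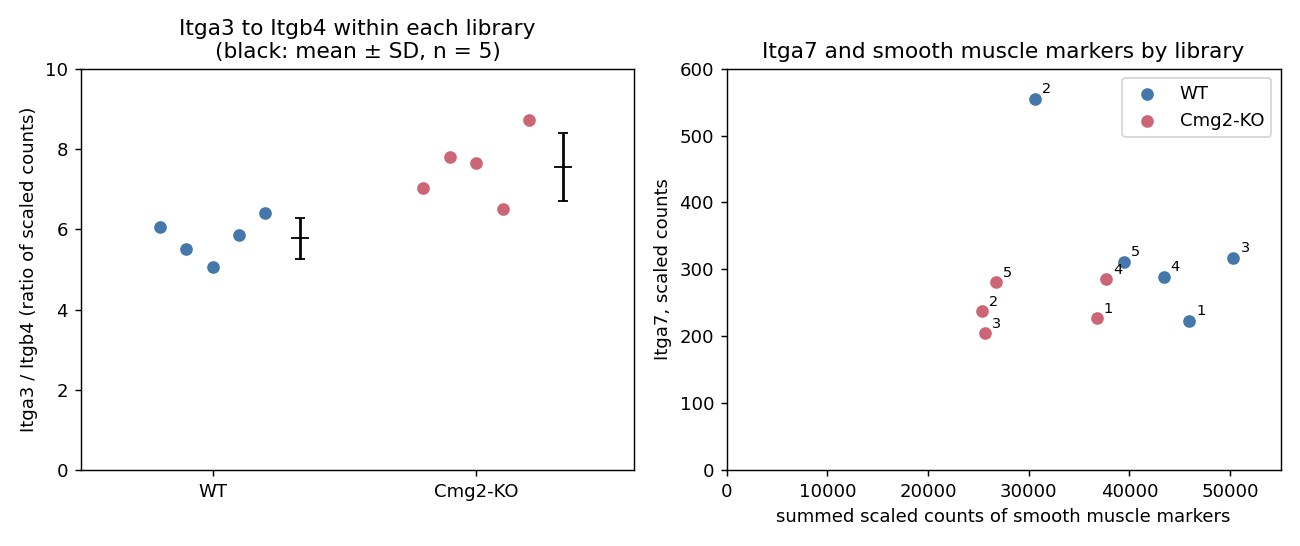
Left, the ratio of Itga3 to Itgb4 scaled counts within each library, with the mean ± SD (n = 5) per genotype, where the highest WT library is at 6.40 and the lowest Cmg2-KO library at 6.51. Right, Itga7 scaled counts against the summed scaled counts of 9 smooth muscle markers in each library, where WT 2 combines the highest Itga7 (555) with the lowest WT smooth muscle sum (30622).

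Itgae encodes alpha E (CD103), the subunit that pairs with beta 7 on lymphocytes within epithelium and on some dendritic cells, and binds E-cadherin. It lies on chromosome 10 at 59539405 to 59711874, plus strand. It had 229, 182, 193, 183 and 158 scaled counts in the WT libraries and 199.9, 208, 232, 233 and 259.9 in the Cmg2-KO libraries. Only WT 1 reached into the Cmg2-KO range. The means were 189 ± 25.7 and 227 ± 23.6 (SD, n = 5), and by limma the log2 fold change was 0.27 with an SE of 0.12 (adjusted p = 0.905; exact permutation p = 0.0397). Its low counts add to the spread: counting error alone gives an SD of 14.0 in WT and 14.8 in Cmg2-KO.

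Few leukocyte markers were available beside Itgae. Of 20 lymphoid markers 2 were in the table, the plasma cell genes Jchain and Mzb1, both higher, with sums of 1924 to 4464 in WT and 3601 to 6656 in Cmg2-KO. Of 22 myeloid markers 2 were in the table. Flt3, a receptor kinase that dendritic cells depend on, averaged 245 ± 32.4 and 295 ± 38.5, while Siglec5 averaged 533 ± 115 and 339 ± 54.6. For Siglec5 the adjusted p in the authors' deposited table was 0.0358, and in limma 0.661. The 2 summed to 589 to 909 in WT and 582 to 740.1 in Cmg2-KO. No T cell marker of the list was among the genes analysed here, none of the 4 markers was at 0 in any library, and their part in the Itgae values was not tested.

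Of the proteins on the inner face of the adhesion, Fermt2 encodes kindlin-2, the widely expressed kindlin that activates integrins together with talin. It is on the minus strand of chromosome 15, at 19807808 to 19876408. WT libraries were close together at 6139, 6814, 6542, 6408 and 6613 scaled counts, whereas Cmg2-KO libraries were spread out at 6914, 8873, 6372, 7354 and 8713. Cmg2-KO 2 and Cmg2-KO 5 carried most of the difference, and Cmg2-KO 3 lay within the WT range. The means were 6503 ± 251 and 7645 ± 1105 (SD, n = 5). By limma the log2 fold change was 0.22 with an SE of 0.09 (adjusted p = 0.867; exact permutation p = 0.0556). The SD was 3.86% of the mean in WT and 14.5% in Cmg2-KO.

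Vcl encodes vinculin, which binds talin and actin and strengthens adhesions under load. It lies on chromosome 15 as well, at 3455211 to 3544702 on the minus strand. The WT libraries had 4389, 4429.7, 4465, 4746 and 4814 scaled counts and the Cmg2-KO libraries 5112, 5297, 4443, 4931 and 5708. As with Fermt2, the lowest Cmg2-KO library was Cmg2-KO 3, inside the WT range, and Cmg2-KO 2 and Cmg2-KO 5 were the highest. The means were 4569 ± 196 and 5098 ± 466 (SD, n = 5). By limma the log2 fold change was 0.15 with an SE of 0.07 (adjusted p = 0.891; exact permutation p = 0.0476).

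Tns3 encodes tensin-3, which binds beta integrin tails and actin and belongs to the more mature, fibril-like adhesions. It is on the minus strand of chromosome 14, at 88673881 to 88886198, and had the most reads of the 7 genes. Its WT libraries had 13874, 14432, 17233, 15441 and 14437 scaled counts and its Cmg2-KO libraries 17754, 15892, 17720.7, 17789 and 16675. WT 3 reached the Cmg2-KO range and the other 4 WT libraries lay below all of it. The means were 15084 ± 1328 and 17166 ± 852 (SD, n = 5). By limma the log2 fold change was 0.19 with an SE of 0.06 (adjusted p = 0.781; exact permutation p = 0.0317).

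**Figure D3:**
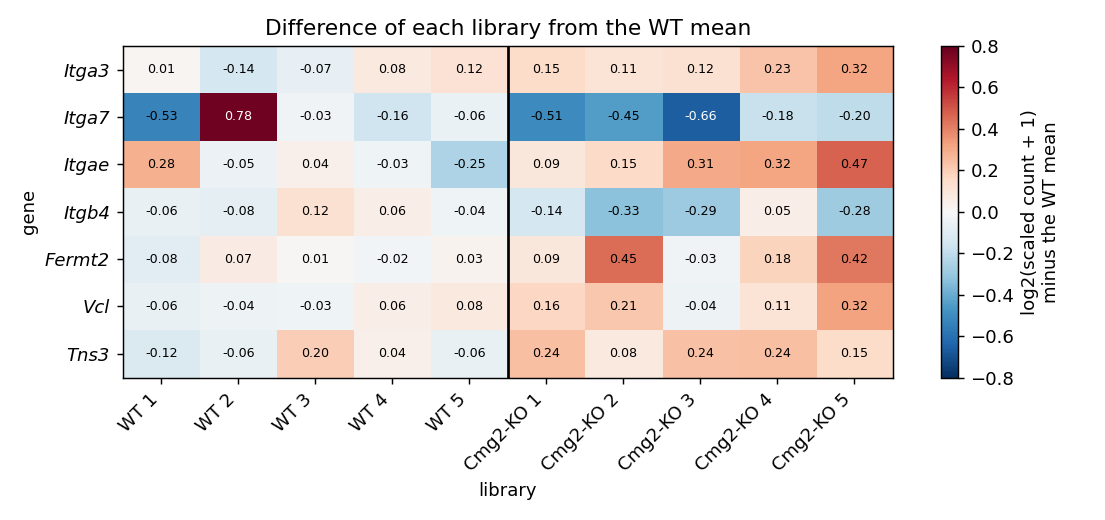
Difference of each library from the WT mean, in log2(scaled count + 1), for the 7 genes, with red above and blue below the WT mean and the value in each cell. Cmg2-KO 5 is above the WT mean by 0.15 to 0.47 for the 5 higher genes, and WT 2 is at 0.78 for Itga7.

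None of the 7 genes separated the genotypes fully, while 16.4% of the tested genes did. For each gene, leaving out 1 library was enough to separate them. Leaving out WT 5 or Cmg2-KO 2 separated Itga3, WT 3 separated Tns3, Cmg2-KO 3 separated both Fermt2 and Vcl, Cmg2-KO 4 separated Itgb4, and WT 1 separated both Itga7 and Itgae. Of all tested genes, 70.8% were apart with all libraries or after leaving out 1.

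Per length of gene, the levels fell into 3 tiers. In WT, Tns3 had 2034 ± 179 and Fermt2 1985 ± 76.6 scaled counts per kb, and the libraries of the pair overlapped (SD, n = 5). Itga3 at 868 ± 63.5 and Vcl at 832 ± 35.7 per kb also overlapped with each other and lay below both. The lowest tier was Itgb4 at 109 ± 6.52, Itga7 at 67.0 ± 24.9 and Itgae at 47.8 ± 6.51 per kb, in which WT neighbours overlapped. In Cmg2-KO, Fermt2 (2334 ± 337) and Tns3 (2315 ± 115) overlapped, as did Itga3 (987 ± 60.7) and Vcl (928 ± 84.9), while Itgb4 at 95.4 ± 10.8 stood clear of Itgae (57.3 ± 5.98) and Itga7 (48.8 ± 6.92). All 3 genes on the inner face and Itga3 thus lay far above Itgb4, Itga7 and Itgae. Integrin subunits outside the table have no values here and are not part of this ranking. By position, 3 of the 7 genes are on chromosome 10, which holds 7.20% of the table. Fermt2 and Vcl are both on chromosome 15, which holds 2.88%. The share of all 53 named genes on these chromosomes was not examined, so no clustering is shown. No member overlapped another gene of the table.

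RefSeq promoters, the 250 bases before and 50 after a gene's start in build GRCr8, were matched for 4 of the 7 genes (Itga3, Itgae, Tns3 and Vcl). They were searched on both strands for motifs of factors that respond to adhesion and tension, and for the GC box, a common promoter motif. CATTCC, the core site of TEAD factors, through which the adhesion-sensitive coactivator YAP acts, was in 2 of the 4 (Itga3 and Vcl) and in 14.2% of 33469 promoters. The CArG box of serum response factor was in none of the 4 and in 1.64% of promoters, and TGANTCA of AP-1 in none and 7.33%. The GC box GGGCGG was in 3 of the 4 and in 33.1%. The parts before the start of the 2 genes that hold the TEAD letters are shown to place the match. All 4 genes searched averaged higher in Cmg2-KO, Itgae and Tns3 without the letters, and neither lower gene was searched. The match, in capitals, is read as its reverse complement on this strand and overlaps none of the other motifs.
Itga3, chr10:80518902-80519151, minus strand: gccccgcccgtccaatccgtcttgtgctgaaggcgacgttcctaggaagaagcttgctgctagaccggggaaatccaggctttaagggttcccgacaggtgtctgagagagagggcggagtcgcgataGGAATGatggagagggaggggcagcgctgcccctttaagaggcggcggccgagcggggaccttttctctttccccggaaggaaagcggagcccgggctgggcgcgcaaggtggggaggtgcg
Vcl, chr15:3404801-3405050, minus strand: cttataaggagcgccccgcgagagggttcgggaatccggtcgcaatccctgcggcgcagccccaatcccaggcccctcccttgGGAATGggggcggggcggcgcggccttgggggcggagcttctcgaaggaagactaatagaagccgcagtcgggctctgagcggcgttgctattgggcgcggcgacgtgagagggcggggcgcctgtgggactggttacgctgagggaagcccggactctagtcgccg
The match starts 122 bases before the gene start in Itga3 and 167 in Vcl. It describes these letters and says nothing of binding. A list of 28 YAP and serum response factor targets had 1 gene in the table, Ajuba, at 2166 ± 297 in WT libraries and 2511 ± 235 in Cmg2-KO libraries (SD, n = 5). That list is not a full set of targets. It counts none of the 9 smooth muscle markers above, all lower, so Ajuba alone does not describe the targets of these factors.

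A list of integrin ligands in general, on the matrix and on cell surfaces and not only those of the subunits above, was mostly higher where listed, 5 of 6 in the table (of 51 on the list), with a median log2 fold change of 0.31 beside -0.15 over all genes tested. None passed limma's adjusted threshold. Of all genes tested, 48.2% were higher and 16.4% separated the genotypes fully. The ligands given with values are those with the smallest limma p, a choice that favours separation. Lamb3 encodes a laminin beta chain of epithelial basement membrane, a ligand that alpha 3 beta 1 and alpha 6 beta 4 share. It averaged 2267 ± 259 in WT and 2654 ± 160 in Cmg2-KO lung, and Icam1, which binds leukocyte integrins, 8445 ± 1265 and 9931 ± 819.5 (SD, n = 5). The genotypes overlapped in both. Egfl6, a secreted basement membrane protein with an integrin-binding motif, averaged 2417 ± 209 and 3124 ± 328, and every Cmg2-KO library was above every WT library (log2 fold change 0.37 ± 0.08, SE; limma, adjusted p = 0.491). The authors' deposited table gave Egfl6 an adjusted p of 0.0172. Lamc3, a laminin gamma chain, was the 1 lower ligand, at 213 ± 17.9 and 152 ± 30.1, with all 5 Cmg2-KO libraries below all WT libraries (log2 fold change -0.50 ± 0.15, SE; limma, adjusted p = 0.691). The other listed ligands, Fgg and Thbs1, were higher on average.

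Signalling genes downstream of integrins had 5 of 53 in the table, 4 higher and 1 lower, beside 48.2% higher among all genes tested. Their median log2 fold change was 0.15, beside -0.15 over all genes tested, and none passed limma's adjusted threshold. Cass4 and Nedd9 belong to the Cas family of scaffolds that focal adhesion kinase and Src act on. Cass4 averaged 451 ± 66.3 in WT and 568 ± 76.9 in Cmg2-KO, and Nedd9 3237 ± 787 and 4057 ± 597 (SD, n = 5). Map2k1, which encodes the MAP kinase kinase MEK1, averaged 1729 ± 49.99 and 1923 ± 69.1, with every Cmg2-KO library above every WT library (limma, adjusted p = 0.707). Such full separation was seen in 16.4% of all genes tested, and choosing genes by smallest limma p favours it. Arhgef6, an exchange factor for Rac and Cdc42 that binds parvins, averaged 645 ± 51.9 and 567 ± 28.8. The fifth listed gene, Rhoa, encodes the GTPase that drives stress fibres and averaged higher. It also had every Cmg2-KO library above every WT library, though it was not among the genes chosen by smallest limma p. Membrane partners of integrins had 2 of 26 in the table, both higher: Ehd1, of endosomal recycling, at 5599.5 ± 247 and 6294 ± 326, and the tetraspanin gene Tspan4 at 25.4 ± 15.1 and 51.3 ± 30.8.

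Other adhesion plaque genes were mostly lower where listed, unlike Fermt2, Vcl and Tns3. Of 41 on the list 7 were in the table, 5 lower and 2 higher, beside 48.2% higher among all genes tested. Their median log2 fold change was -0.30, beside -0.15 over all genes tested, and none passed limma's adjusted threshold. The lower ones were Svil, Sorbs2, Synpo2, Cnn1 and Fhl2, and the higher ones Lasp1 and Ajuba. Synpo2 and Cnn1 are also on the smooth muscle list. Svil, which encodes the actin- and myosin-binding supervillin, averaged 3164 ± 169 in WT and 2672 ± 332 in Cmg2-KO, and Sorbs2, an adaptor at stress fibres, 513 ± 58.6 and 415 ± 46.1. Synpo2 averaged 1110.2 ± 172 and 817 ± 180.2. Lasp1, an actin-binding LIM and SH3 protein, averaged 6046 ± 419 and 6672 ± 311 (SD, n = 5). Plaque genes in the table thus did not share 1 direction. The platelet list had 0 of 13 genes in the table. The endothelial list had 2 of 15, Tie1 lower and Plvap higher, with sums of 26876 to 33725 in WT and 27461 to 33857 in Cmg2-KO.

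**Figure D4:**
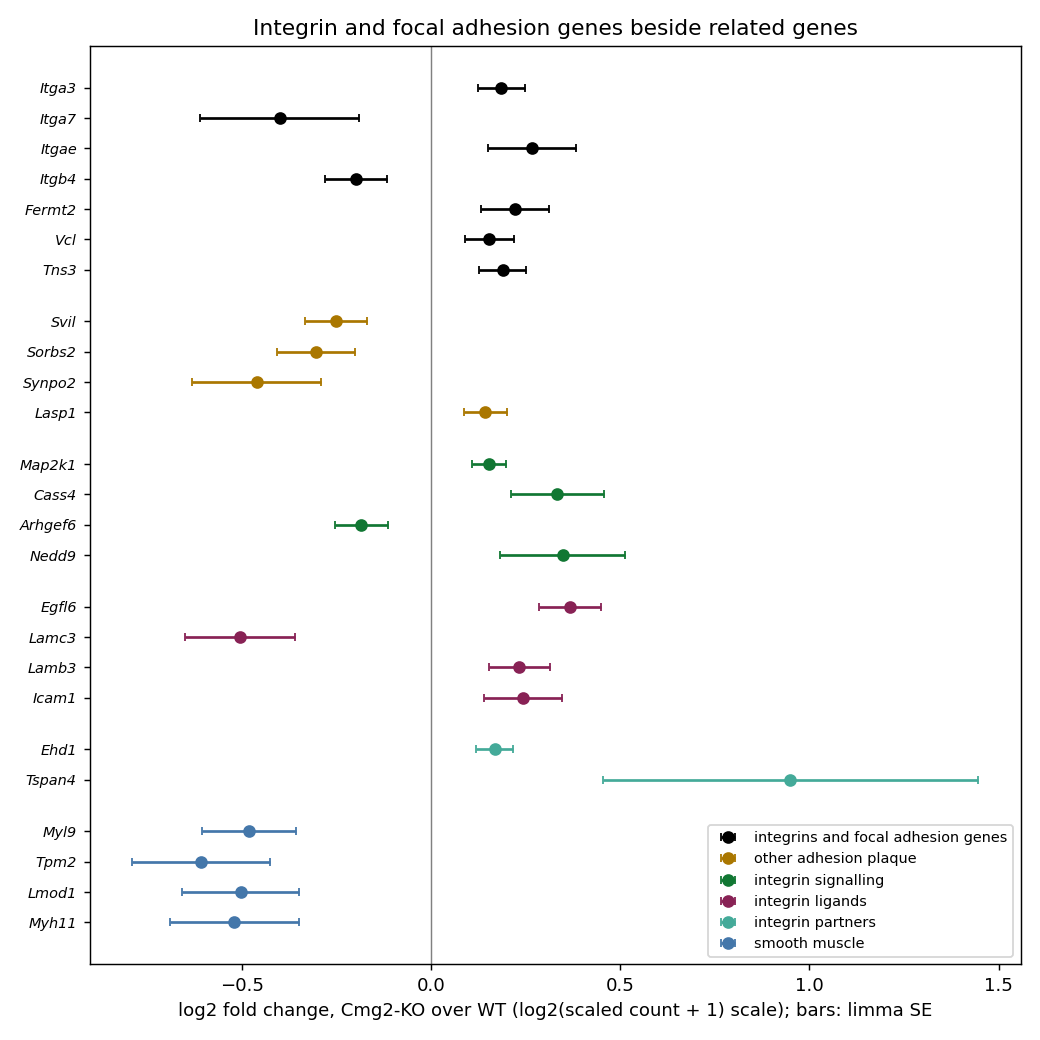
Log2 fold change of Cmg2-KO over WT with its limma SE for the 7 integrin and focal adhesion genes and for up to 4 genes of each related list. The focal adhesion genes Fermt2, Vcl and Tns3 lie between 0.15 and 0.22, and the 4 smooth muscle genes shown and Synpo2 lie below -0.45.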

How the data were processed

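RNA from flash-frozen lung was extracted with Trizol and made into libraries with the NEBNext Ultra kit, per the labels' protocols, which do not state that strand was kept. Per the submitters' processing notes, HISAT2 2.0.5 aligned the reads and featureCounts 1.5.0-p3 counted them per gene. For the genome build, the annotation and the authors' test, nothing is given in the sources used here. The 10 library columns of the deposited table hold a signal, read counts divided by 1 size factor per library. All values were whole multiples of what 1 read is worth, within 0.02 reads. Other deposited columns are the means per genotype, a log2 fold change, the same as a linear fold (ratio), p-values before and after adjustment, and the gene length used for levels per kb. A Benjamini-Hochberg adjustment over 19894 genes returns the authors' adjusted p-values at all but 6 genes, so numbers over 19894 are approximate.

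Cmg2-KO was compared with WT on log2(scaled count + 1) by limma 3.58.1 with its trend and robust options (R 4.3.3). The 1308 genes above 0.5 in at least 5 libraries were tested, which include all 7 members. Adjustment used 19894 genes, with every gene outside the table taken as failing. The moderated variances come from genes selected for this contrast. Single genes also had a two-sided exact permutation test over 252 assignments of libraries. Alternatives covered the pseudocount, filter, scaling, replicate block, each library left out, and count tests with edgeR 4.0.16 and DESeq2 1.42.0 on the whole reads of 9 libraries. The read worth of WT 4, 1.01 scaled counts, was too near 1 for the recovery check, and this library stayed out of those tests. The scripts were tested on simulated data. No 2 libraries of a genotype agreed within sampling noise (chi-square per degree of freedom of at least 14.9 in the pairs of these 9).

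A further 2 genes were taken off the lists and are not reported here. Members and lists were chosen with earlier results of these data known. All members are named, and of each of the 12 other lists up to 4 genes with the smallest limma p. Further list genes given by direction or as overlapping were chosen after their values were seen.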

Additional observations from a re-analysis of the deposited data

Results flagged for a closer look

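Each genotype's 5 libraries were examined for 39 genes, the 7 integrin and focal adhesion genes and the named genes of the lists. By Dixon's criterion, a library counted as far from the rest when its gap to the nearest of the other 4 exceeded 0.71 of the whole range. Passing in scaled counts or on the log2 scale was enough. This held in 3 of 78 groups, where chance at 1 in 20 would give about 3.9 for 1 scale alone. Itga7 in WT 2 was at 555 scaled counts against 223 to 317 in the other WT libraries, with the gap 0.716 of the range in scaled counts and 0.614 on the log2 scale. It was the 1 flag among the 14 groups of the integrin and focal adhesion genes. The other flags were the proteoglycan gene Dcn in Cmg2-KO 4, at 1678 against 971 to 1067, and the mesothelial gene Upk3b in Cmg2-KO 1, at 574 against 907 to 1029.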

How the results depend on the processing

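In all 20 alternatives each of the 7 genes kept the sign of its log2 fold change, with 5 higher, and none passed the adjusted threshold, in limma, edgeR or DESeq2, or in the exact test where it was run. Adjusting over the table alone gave the lowest adjusted p, 0.0514 by limma. Every gene there was already selected by p-value for this comparison, so this setting is too lenient and its values carry no weight. It raised the count over all genes from 3 to 257. DESeq2 gave 45 and edgeR 1, and the replicate block 0. The members' median log2 fold change of 0.19 ranged from 0.15 to 0.20 when a library was left out. Over these 10 alternatives, the number of members with an unadjusted limma p under 0.05 ranged from 2 to 5 (6 with all libraries), and the number whose genotypes did not overlap from 0 to 2. The replicate numbers are not stated to pair animals, and correlations between same-numbered libraries were small, at -0.02 to 0.09. Still, 5 of 10 libraries correlated best with their own number among 5 candidates each, more than unrelated numbering gives on average. With the replicate block 5 members had an unadjusted p under 0.05 and none passed. The depth of the libraries is unknown, and a table of genes selected by p-value cannot show which integrin genes did not differ.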
